A study of Mus musculus with 35 samples.

Results

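The colons of axenic mice that had been given dextran sulfate sodium (DSS) were compared with the colons of untreated conventional wild-type mice, to ask which genes of DSS colitis moved in the axenic control setting. The members are 10 of the 35 arrays of the series, chosen by their titles: 5 axenic DSS controls, lettered A to E here in ascending order of the mouse numbers in their titles, and 5 untreated wild-type mice, numbered 7 to 11. All were C57BL/6N per the labels, and the labels name no age, sex, cage or batch. The untreated mice drank plain water. The axenic controls drank 3% DSS for 5 days and then water, and the protocol gives day 12 for collection. Their label puts DSS ahead of a microbial transfer, and whether or when they received flora is not stated, so that they need not have been free of microbes. The label of the untreated mice also speaks of a microbial transfer, whereas title and design describe plain untreated wild-type mice, which was followed. No untreated axenic mouse is among the 35 samples, so axenic housing and DSS cannot be told apart in any difference below. A further group of 5 conventional wild-type mice given DSS (mice 52, 53, 55, 56 and 65) served as a reference for what DSS did with a normal flora, and 10 transgenic mice, 5 untreated and 5 given DSS, as a further one. The transgene is Reg3a, and its promoter and species are not stated. Mice of a group are separate animals, and p-values weigh a difference between groups against the spread between mice.

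DSS is a sulfated polysaccharide that damages the lining of the colon, so that gut contents reach the tissue below, innate immune cells enter and the crypts then rebuild the surface by cell division. In conventional mice the epithelium answers microbes with secreted lectins (the Reg3 family), resistin-like proteins and oxidant enzymes, and the lamina propria holds plasma cells that make IgA. Germ-free mice are known for low levels of these microbe-driven products and for few IgA plasma cells.

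Each mouse gave 1 array (Affymetrix Mouse Gene 1.0 ST, 200 ng of total RNA). Levels are log2 signal after RMA, the authors' normalization, and a log2 difference of 1 is a doubling. One probe set stood for each of 19908 genes. A gene was called when its adjusted p in limma (moderated test over all genes, Benjamini-Hochberg) was under 0.05, and ± is the SD over 5 mice. In whole tissue, fewer cells of a type and less RNA per cell cannot be told apart. The colon markers were present in both groups. The mean log2 level of 16 colon epithelial genes lay between 11.76 and 11.91 in the untreated mice and between 10.18 and 11.44 in the axenic controls. Every control thus lay below every untreated mouse. Of the 16 genes 8 were called lower and none higher (14.5% of all genes were called lower), with a median log2 difference of -0.79. Muc2, the main mucin of goblet cells, read 13.09 ± 0.43 in the controls.

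The arrays of the axenic controls were less spread out than those of the untreated mice. The SD over the probe sets of an array averaged 1.73 (1.64 to 1.78) in the controls and 1.87 (1.76 to 1.97) in the untreated mice, a difference of -0.141 (exact permutation test, two-sided, p = 0.0238). Beside it, the median log2 difference was 0.156, 0.184, -0.039 and -0.384 in 4 equal bins of genes from the lowest to the highest mean signal, and in the highest 1910 genes were called lower and 188 higher. Xist, a transcript of female cells, was above 8 on the log2 scale in 2 of 5 untreated mice (7 and 8) and in none of 5 axenic controls. The part of spread and sex in the calls was not tested beyond the refits given with each count.

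**Figure D1:**
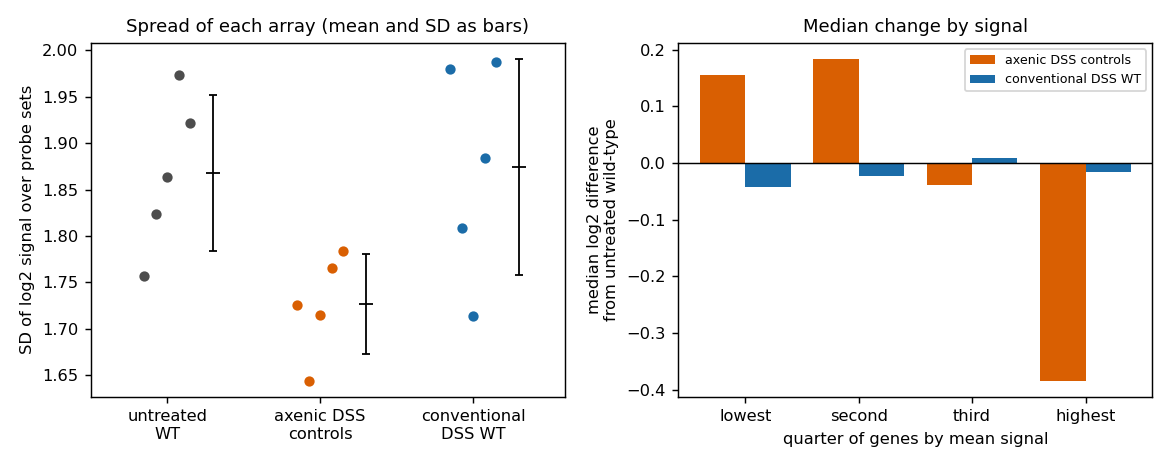
Left, the SD of log2 signal over the probe sets of each array (points, 1 per mouse, with the group mean and SD) for untreated wild-type, axenic DSS controls and conventional DSS wild-type mice. Right, the median log2 difference from untreated wild-type in 4 equal bins of the genes by mean signal, for axenic controls and for conventional DSS mice, which share the untreated mice. The controls lie at 1.78 or below on the left, and on the right their bars go from 0.156 in the lowest bin to -0.384 in the highest.

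Many genes differed between axenic DSS controls and untreated wild-type mice. Of 19908 genes 4158 (20.9%) were called, 1267 higher (6.36%) and 2891 lower (14.5%) in the controls, and at least 2-fold changes numbered 92 higher (0.462%) and 528 lower (2.65%). At an unadjusted p under 0.05 there were 7983 genes (40.1%). The groups did not overlap in 2649 genes (13.3%), and the median log2 difference over all genes was 0.073. The higher share of the calls was 30.5%, and it was 20.3% with arrays centred on their median, 43.2% with quantile normalization of these 10 arrays, 47.6% with array weights and 17.3% to 46% over the other refits given here. The count rested on single mice: it was 2700 without mouse C, 2396 without D, 2506 without untreated mouse 7, 7781 without 9, 1937 without 10 and 2081 without 11. With the 5 untreated transgenic mice as reference it was 2129, with the 3 Xist-low untreated mice 863, with array weights 8358, with the spread of the array as a covariate 63, and with the mean of the posterior Hox genes added as a covariate 0 (2108 at an unadjusted p under 0.05). Both covariates differed between the groups. The posterior Hox mean lay between 6.62 and 6.98 in the controls and between 6.77 and 7.76 in the untreated mice. With 5 mice a group, the part of either covariate cannot be told apart from the group in these fits. Of the 73 called genes described here (immunoglobulin chains aside), 15 kept their call with the spread covariate: Ccna2, Mki67, Top2a, Ccnb2, Kif11, Mad2l1, Ect2, H2bc3, Scd1, Cyp2c55, Kyat1, Prss30, Gstm6, Acaa2 and Per3. Against the untreated transgenic mice 52 kept their call and direction, and those without a call there were Il1b, Ncf1, Cd177, Cx3cl1, Grem1, Alb, H2-Ob, Cyp2f2, Best2, Sprr1a, Anxa8, Cldn2, Casq2, Cd22, Reg4, Dbp, Per2, Nnt, Hoxb13 and Hoxd12. With the Xist-low mice 52 kept their call, and Il1b, Cxcl10, Cx3cl1, Oasl1, Ncf1, Grem1, Sparc, Alb, H2-Ob, Retn, Lpl, Scd1, Mptx1, Aqp8, Casq2, Sdc1, Cd22, Reg4, Hoxb13, Hoxa13 and Hoxd12 did not. The shares of 6.36% higher and 14.5% lower over all genes are given below as the background of the gene groups. They depend on signal. Of the 4977 genes in the bin of highest mean signal 1910 were called lower and 188 higher, and in the lowest bin 18 and 319. For lists of genes with high signal the background of falls is thus above 14.5%, and no list was matched for signal.

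Among the 15 largest rises with no overlap of groups, 5 were on the cell cycle list, and the others held the cytokine Il1b, the acute phase gene Hp and Grem1, which encodes a secreted inhibitor of bone morphogenetic proteins. Among the 15 largest falls were enzymes of drug and steroid metabolism, transporters of surface colonocytes and Jchain, the joining chain of IgA and IgM.

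**Figure D2:**
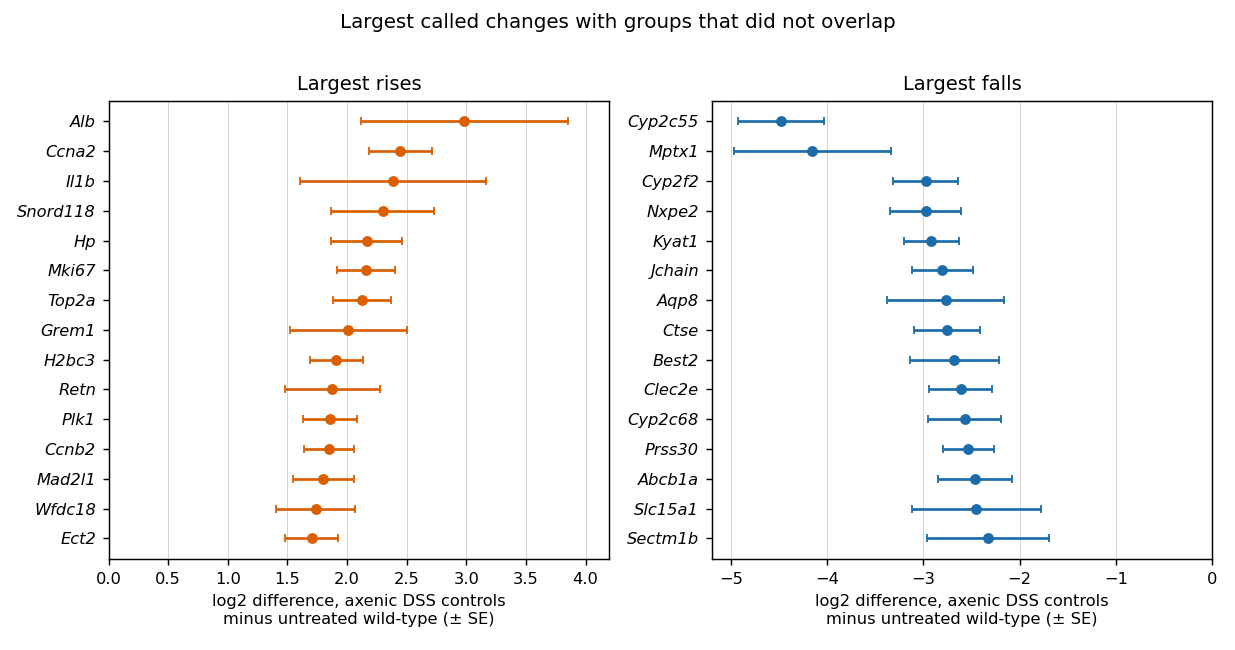
Log2 difference between axenic DSS controls and untreated wild-type mice (5 mice each), with its moderated SE, for 15 rises and 15 falls, the largest of those called without overlap of the groups. Rises go up to 2.98 (Alb) and falls down to -4.48 (Cyp2c55). The SE of Alb (0.868), Il1b (0.782) and Mptx1 (0.817) are the widest on the plot.

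Genes of dividing cells rose as a group. Of 31 cell cycle genes measured, 28 were called higher and none lower (background 6.36% higher). The groups did not overlap in 22 (background 13.3% of all genes), and the median log2 difference was 0.93 against 0.073 over all genes. Ccna2, the cyclin of S phase and mitotic entry, read 9.91, 9.89, 8.60, 9.41 and 8.67 in controls A to E and 6.43, 6.86, 6.99, 7.16 and 6.81 in untreated mice 7 to 11. Every control lay above every untreated mouse by more than 1 log2 unit. The log2 difference of Ccna2 was 2.45 (SE 0.27, adjusted p = 0.00101 in limma), a 5.45-fold rise.

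Other rises were in Mki67, the proliferation marker Ki-67 (2.16), Top2a, the topoisomerase that untangles replicated DNA (2.12), the mitotic cyclin Ccnb2 (1.85) and the mitotic kinase Plk1 (1.85). Mad2l1 of the spindle checkpoint rose by 1.80, Ect2, needed to split the dividing cell, by 1.70 and the spindle motor Kif11 by 1.46, and H2bc3, a histone made in S phase, by 1.91. Mad2l1, Ect2 and H2bc3 are not on the list. The adjusted p ran from 0.00101 to 0.00218 in limma, and none of these 9 genes had overlapping groups. Mice A and B had the highest levels of Ccna2, Mki67 and Top2a and mouse C the lowest among the controls. In conventional DSS mice, which drank the same DSS, the list median against the same untreated mice was 1.10. No gene of the list was called between axenic controls and conventional DSS mice in limma (median log2 difference -0.04, background 0.638% of all genes). With so low a background, the lack of calls does not show equal levels. The count over all genes there moved from 127 to 7398 without conventional DSS mouse 55 and to 11521 with array weights. The count of 28 lay between 24 and 28 when any 1 mouse was left out. It was 25 with untreated transgenic mice as reference, 17 with the Xist-low untreated mice and 5 with the spread of the array as a covariate, where Ccna2 kept its call (log2 difference 2.64, adjusted p = 0.0342).

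Promoters of 4 of these genes are shown because they rose together and carry elements known from late cell cycle genes. The windows are from RefSeq (GRCm38.p6), reach from upstream of the annotated start to just after it, and are written 5′ to 3′ on the strand of the gene. Capitals mark the CCAAT box (CCAAT or, on the other strand, ATTGG) and the core of the cell cycle homology region (TTTGAA or TTCAAA). They are for Ccnb2 chr9:70421505-70421804 (minus strand), Top2a chr11:99024140-99024439 (minus), Plk1 chr7:122159185-122159484 (plus) and Mki67 chr7:135716330-135716629 (minus).
Ccnb2: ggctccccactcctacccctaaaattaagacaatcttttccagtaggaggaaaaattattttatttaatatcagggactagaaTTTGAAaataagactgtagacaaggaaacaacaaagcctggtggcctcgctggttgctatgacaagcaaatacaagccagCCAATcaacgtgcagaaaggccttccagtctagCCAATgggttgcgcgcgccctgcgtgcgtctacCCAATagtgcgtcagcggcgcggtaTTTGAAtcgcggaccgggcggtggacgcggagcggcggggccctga
Top2a: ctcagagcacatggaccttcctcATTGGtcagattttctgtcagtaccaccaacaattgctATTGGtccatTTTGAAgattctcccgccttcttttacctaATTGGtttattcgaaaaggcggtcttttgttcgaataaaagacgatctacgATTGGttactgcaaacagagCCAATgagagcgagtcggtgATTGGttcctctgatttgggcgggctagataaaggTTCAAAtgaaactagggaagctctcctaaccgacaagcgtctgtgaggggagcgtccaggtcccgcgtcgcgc
Plk1: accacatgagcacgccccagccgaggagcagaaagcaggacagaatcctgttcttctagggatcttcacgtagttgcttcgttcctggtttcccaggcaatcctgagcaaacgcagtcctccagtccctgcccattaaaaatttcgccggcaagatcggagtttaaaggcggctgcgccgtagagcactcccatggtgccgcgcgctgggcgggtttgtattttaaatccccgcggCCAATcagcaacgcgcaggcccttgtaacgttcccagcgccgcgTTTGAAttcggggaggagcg
Mki67: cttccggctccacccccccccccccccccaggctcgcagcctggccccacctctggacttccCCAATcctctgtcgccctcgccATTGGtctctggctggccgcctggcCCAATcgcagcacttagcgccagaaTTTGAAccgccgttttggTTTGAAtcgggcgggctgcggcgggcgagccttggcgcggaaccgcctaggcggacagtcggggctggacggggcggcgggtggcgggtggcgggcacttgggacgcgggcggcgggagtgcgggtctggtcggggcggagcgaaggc
The 300 bases of Top2a hold 6 CCAAT boxes, those of Ccnb2 and Mki67 3 each and those of Plk1 1. No match of one motif overlapped the other in these windows. Over the cell cycle list 24 genes had a promoter in the table: 19 held a CCAAT box (79.2%, against 41.1% of all 27025 genes) and 11 the homology core (45.8%, against 20.2%). The CCAAT share was 86.7% in the clock list, 55% in the interferon list and 14.8% in the chemokine list, and that of the homology core 0%, 15% and 25.9%. A match describes letters in a window and not a bound site.

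Inflammatory genes were uneven between the axenic controls. Il1b, the cytokine made by activated macrophages and neutrophils, read 7.67, 9.60, 6.40, 11.23 and 6.48 in controls A to E and 5.92, 6.04, 6.12, 5.73 and 5.64 in untreated mice 7 to 11. Mice D and B stood far above the other controls, and mice C and E were close to the untreated level although the groups did not overlap. The log2 difference was 2.38 (SE 0.78, adjusted p = 0.0497 in limma). The call was lost without mouse A (adjusted p = 0.0557), B (0.0924), D (0.0691) or untreated mouse 7 (0.0873), 8 (0.0766), 10 (0.103) or 11 (0.105).

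The same mice were high for other genes of acute inflammation that did not pass the test. The neutrophil chemokine Cxcl2 read 10.78 in mouse D, 7.45 in B and 5.50 to 6.42 in the other controls, against 4.85 to 5.46 in the untreated mice (log2 difference 1.96, adjusted p = 0.0976). Il6 read 7.96 and Tnf 8.02 in mouse D, while the other controls lay between 4.38 and 5.02 for Il6 and between 6.14 and 6.63 for Tnf. Further log2 differences without a call in limma were 1.87 for Saa3, an acute phase protein of epithelium and macrophages, 1.86 for the protease inhibitor Timp1, 1.54 for the matrix protease Mmp10, 1.46 for the prostaglandin synthase Ptgs2, 1.28 and 0.92 for the neutrophil proteins S100a9 and S100a8, and 1.06 for Lcn2, which binds bacterial siderophores (adjusted p from 0.0666 to 0.152). Their SE of 0.46 to 0.77 was wide, since mice B and D stood apart from the other controls in several of them. Il17a (0.04, 95% interval -0.16 to 0.24) and Ifng (0.25, 0.04 to 0.47), cytokines of lymphocytes, were not called either. Without untreated mouse 9 Ifng was called (adjusted p = 0.0413), and without mouse E Timp1 was (adjusted p = 0.0293).

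Hp and Lrg1 rose in every axenic control. Hp, haptoglobin, which binds free haemoglobin, read 7.15, 9.04, 8.11, 8.09 and 7.36 in controls A to E and 5.51, 5.68, 5.66, 6.15 and 5.92 in untreated mice 7 to 11. All 5 controls lay above all untreated mice, also C and E with their low Il1b. Hp rose by 2.16 (SE 0.30, adjusted p = 0.00197 in limma) and Lrg1, a secreted glycoprotein of inflamed tissue, by 1.55 (SE 0.23, adjusted p = 0.0026), and both kept their call without any 1 mouse. Of 18 acute phase genes 6 were called higher and none lower (background 6.36% higher), with a median of 0.46. That count was 4 without mouse B or D, 3 without E or untreated mouse 7 or 8, and 2 without untreated mouse 10 or 11. Grem1 read 10.38 ± 1.29 in the controls and 8.37 ± 0.24 in the untreated mice, a log2 difference of 2.01 (SE 0.49, adjusted p = 0.0178), again with mice B (11.95) and D (11.51) on top. It lost its call against the untreated transgenic mice and against the Xist-low untreated mice. Of 33 matrix genes 5 were called higher (background 6.36% higher), led by Sparc, a collagen-binding protein (1.30). The 5 were 15 without mouse E, 9 without untreated mouse 9, 2 without B or C and 1 without D or untreated mouse 7, 8, 10 or 11.

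Chemokine genes were called more often than the background. Of 38 ligands and receptors measured, 14 were called higher (background 6.36%) and 3 lower, with a median of 0.49. Ccl11, which draws eosinophils, rose by 1.06 (SE 0.18, adjusted p = 0.00399 in limma), and Cxcl10, which draws activated T cells, by 1.54 (SE 0.39, adjusted p = 0.0206). Without untreated mouse 10 or 11 the adjusted p of Cxcl10 was 0.0517 or 0.0523. Cx3cl1, the membrane-bound chemokine, fell by 0.76 and Ccl6, a macrophage chemokine, fell by 0.73. The 14 chemokine rises were 7 without mouse B or untreated mouse 8, 6 without mouse D or untreated mouse 7, and 4 without untreated mouse 10 or 11. They were 9 after quantile normalization, 2 with the untreated transgenic mice, 1 with the Xist-low mice and 0 with the spread covariate.

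Few neutrophil genes were called, and the interferon calls moved with single mice. Of 20 neutrophil genes 1 was called higher (Ncf1) and 1 lower (Cd177), with a median of 0.65, and of 28 interferon-stimulated genes 4 were called higher and 1 lower, with a median of 0.15 (backgrounds 6.36% higher and 14.5% lower). The interferon share called higher lay above its background and the neutrophil share did not. Oasl1, an interferon-stimulated antiviral protein, fell by 0.60 (SE 0.14, adjusted p = 0.0165 in limma). The median in conventional DSS mice against the same untreated mice was 1.24 for the neutrophil list and 1.08 for the interferon list. These small counts moved with single mice: the neutrophil rises were 6 without mouse E or untreated mouse 9, 2 without A or B and 0 without D or untreated mouse 10 or 11. The interferon rises were 1 without mouse B, D or untreated mouse 7, 2 without untreated mouse 8 and 0 without 10. The MHC class II list had 6 of 12 genes called higher, with a largest difference of 1.27 and the smallest adjusted p in H2-Ob, which tunes peptide loading (1.04, adjusted p = 0.0115 in limma), but 1 without untreated mouse 10, 2 without mouse D or untreated mouse 7, 8 or 11, 3 without B and 0 against the untreated transgenic mice.

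**Figure D3:**
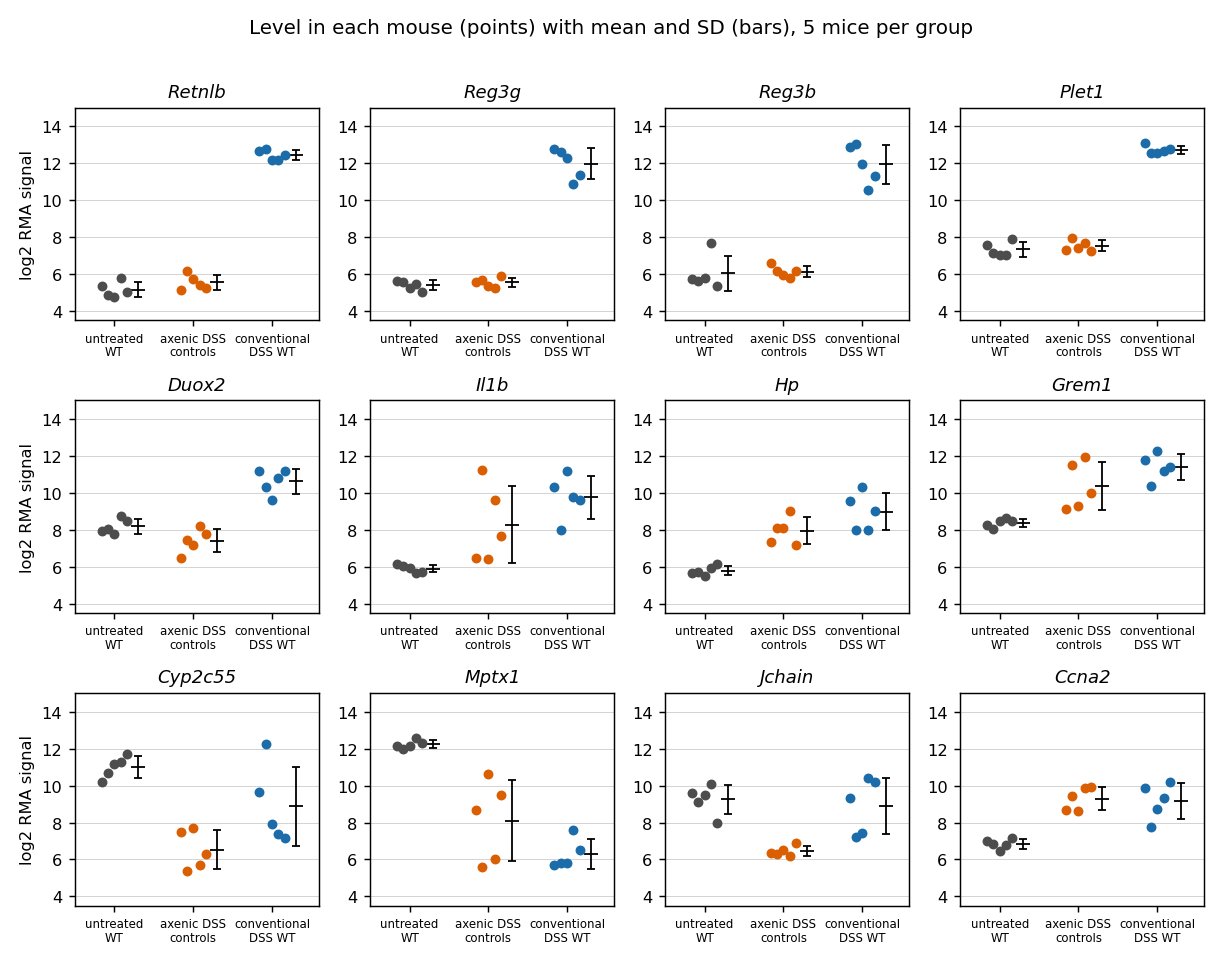
Log2 signal in each mouse (points, 5 per group) with mean and SD (bars) for 12 genes in untreated wild-type, axenic DSS control and conventional DSS wild-type mice. Retnlb, Reg3g, Reg3b and Plet1 of the axenic controls lie near the level of the untreated mice and below every conventional DSS mouse. Il1b and Mptx1 are spread over several log2 units within the controls, and Jchain lies below 7 in all 5 controls.

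Several epithelial genes that are high in conventional DSS colitis were near the level of untreated conventional mice in the axenic controls. Without an untreated axenic mouse, whether they moved with DSS in axenic mice cannot be told. Retnlb, a bactericidal protein of goblet cells, read 5.25, 5.38, 5.70, 6.17 and 5.13 in controls A to E and 4.72, 4.87, 5.35, 4.99 and 5.77 in untreated mice 7 to 11. The groups overlapped. Its log2 difference was 0.39 with a 95% interval of -0.12 to 0.89 (adjusted p = 0.213 in limma). In the 5 conventional DSS mice it read 12.15 to 12.77, and the axenic controls lay 6.90 below them (SE 0.20, adjusted p = 2.19e-08). This second comparison uses the same axenic arrays as the first.

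Reg3g and Reg3b followed the same pattern. Reg3g, which binds Gram-positive bacteria, read 5.88, 5.25, 5.33, 5.66 and 5.53 in the controls and 5.22, 5.57, 5.63, 5.01 and 5.46 in the untreated mice, with overlapping groups and a log2 difference of 0.15 (95% interval -0.18 to 0.48). Conventional DSS mice read 10.84 to 12.75, and the controls lay 6.43 below them (SE 0.34, adjusted p = 5.38e-06 in limma). Reg3b, its neighbour on chromosome 6, read 6.13, 5.78, 5.91, 6.16 and 6.57 in the controls and 5.79, 5.62, 5.72, 5.31 and 7.68 in untreated mice 7 to 11 (log2 difference 0.09, interval -0.73 to 0.90). It lay 5.83 below conventional DSS mice (SE 0.43, adjusted p = 0.000134). Untreated mouse 11 was the high one for Reg3b. The other untreated mice read 5.31 to 5.79, and controls A, C, D and E lay above all of these, so the difference of 0.09 depends on mouse 11. Mouse 11 also had the highest mean level of 19 pancreatic genes (11.41, against 7.07 to 9.88 in the other untreated mice). The part of pancreatic RNA in its Reg3b level was not tested. Of 7 genes on the Reg list, these 2 were called lower than in conventional DSS mice and none higher, and the list median there was 0.04. Against untreated mice 1 was called, Reg4, a Reg relative of secretory epithelial cells (-0.86, adjusted p = 0.0466 in limma). Its call was lost without mouse B, C or D or any 1 untreated mouse, and against the untreated transgenic mice its difference was 0.13 (adjusted p = 0.907).

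The promoters of both lectins are shown because both genes were low in all axenic controls and high in all conventional DSS mice. The windows are from RefSeq (GRCm38.p6), Reg3b at chr6:78370635-78370934 on the plus strand and Reg3g at chr6:78468825-78469124 on the minus strand, 5′ to 3′. Capitals mark the longest stretch of letters that both share.
Reg3b: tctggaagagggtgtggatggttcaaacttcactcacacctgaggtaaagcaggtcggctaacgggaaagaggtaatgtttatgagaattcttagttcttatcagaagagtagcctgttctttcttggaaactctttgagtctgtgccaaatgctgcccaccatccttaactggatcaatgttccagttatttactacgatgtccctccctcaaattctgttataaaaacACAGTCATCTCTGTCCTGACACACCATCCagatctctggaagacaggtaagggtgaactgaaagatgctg
Reg3g: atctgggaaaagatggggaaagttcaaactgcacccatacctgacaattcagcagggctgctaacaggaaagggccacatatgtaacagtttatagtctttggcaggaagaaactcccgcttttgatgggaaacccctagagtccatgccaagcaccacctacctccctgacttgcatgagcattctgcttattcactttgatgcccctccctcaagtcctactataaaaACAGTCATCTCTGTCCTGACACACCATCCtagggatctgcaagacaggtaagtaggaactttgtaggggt
The shared stretch is 29 bases long, and 71.4% of the 294 aligned bases are identical.

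Plet1, a surface protein of wounded and of stem-like epithelium, and the oxidant enzyme pair Duox2 and Duoxa2, which release hydrogen peroxide at the epithelial surface, were also low. Plet1 read 7.51 ± 0.29 in the controls and 7.32 ± 0.40 in the untreated mice, and the groups overlapped (log2 difference 0.19, 95% interval -0.24 to 0.62), and lay 5.20 below conventional DSS mice (SE 0.16, adjusted p = 2.19e-08 in limma). Duox2 read 7.41 ± 0.64 in the controls and 8.18 ± 0.40 in the untreated mice, a difference of -0.77 without a call (adjusted p = 0.0739). Without mouse B it was called lower (-0.96, adjusted p = 0.0362). Against conventional DSS mice Duox2 lay 3.21 lower (SE 0.36, adjusted p = 0.00234) and its maturation factor Duoxa2 2.62 lower (SE 0.27, adjusted p = 0.00144). Duox2 missed the threshold against the 3 Xist-low conventional DSS mice (-2.96, adjusted p = 0.0567). The inducible nitric oxide synthase Nos2 lay 2.46 below conventional DSS mice without a call (adjusted p = 0.0597).

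Clca4b, an epithelial member of the CLCA family, was uneven between mice. It read 7.97 ± 1.75 in the controls, 6.75 ± 0.59 in the untreated and 12.22 ± 0.77 in the conventional DSS mice, with mice B (9.93) and D (9.49) highest among the controls. It was called lower than in conventional DSS mice (-4.25, adjusted p = 0.0339 in limma). That call was lost without mouse A (adjusted p = 0.0754), C (0.0973), E (0.0726) or conventional DSS mouse 52 (0.102), 53 (0.109) or 65 (0.107).

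Over all genes, 127 (0.638%) differed between axenic controls and conventional DSS mice, 119 lower (0.598%) and 8 higher (0.0402%) in the controls. Of 24 genes known to respond to gut microbes, 6 were lower and none higher, and their median was -1.05, against 0.036 over all genes. Against untreated mice 3 of the 24 were called higher and 4 lower (backgrounds of that comparison 6.36% higher and 14.5% lower). The lower share was near its background, and the median was 0.07, against 0.073 over all genes. The higher ones were 1 without untreated mouse 7 or 8, and the lower ones 2 without 7, 8, 10 or 11. Sprr1a, a cornified-envelope protein that flora can induce, rose by 1.01 against untreated mice (SE 0.14, adjusted p = 0.00196), a call that was lost against the untreated transgenic mice. Retnlb, Reg3g, Reg3b, Plet1 and Duoxa2 kept their call against conventional DSS mice without any 1 mouse. The count of 127 did not: it was 65 without mouse A, 59 without B, 45 without C, 49 without D and 41 without E, and 44 without conventional DSS mouse 52 or 65, 37 without 53 and 7398 without 55. It was 24 with the spread covariate, 17 with the Xist-low conventional DSS mice and 11521 with array weights.

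Recipients of flora give a further reference for these genes. In 5 axenic mice that received wild-type flora 3 weeks ahead of DSS, Retnlb read 10.24 to 12.43, Plet1 12.68 to 13.38 and Duox2 10.49 to 10.89, all above every axenic control. Reg3g read 7.37 to 12.72 there, also above the highest control (5.88). Recipients of transgenic flora, and Reg3b, Duoxa2 and Clca4b in recipients, are not described here. The part of flora in these values was not tested.

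Metabolic genes of mature colonocytes fell in the axenic controls, and the general list of colon epithelial genes fell too (8 of 16 called lower). Of 52 genes of xenobiotic and steroid metabolism measured, 35 were called lower and none higher (background 14.5% lower). The groups did not overlap in 30 (background 13.3% of all genes), and the median log2 difference was -1.09. Cyp2c55, a cytochrome P450 of the colon surface, read 6.30, 5.72, 7.72, 5.38 and 7.50 in controls A to E and 11.16, 10.66, 10.21, 11.69 and 11.30 in untreated mice 7 to 11. Every control lay more than 2 log2 units below every untreated mouse. Cyp2c55 fell by 4.48 (SE 0.45, adjusted p = 0.000797 in limma), a 22.3-fold drop and the largest fall named.

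The cytochromes Cyp2f2 and Cyp2c68 fell by 2.98 and 2.57, the drug efflux pump Abcb1a fell by 2.47, and the glutathione transferases Gsta4 and Gstm6 fell by 1.97 and 1.79 (adjusted p from 0.000797 to 0.00328 in limma). The carboxylesterase Ces2a fell by 1.42. Kyat1, which turns kynurenine into kynurenic acid, fell by 2.92 (SE 0.29), from 10.87 ± 0.40 to 7.95 ± 0.64. Probe sets of the large Cyp2c family may share signal between members. The 35 falls were 25 to 39 without any 1 mouse, 24 with quantile normalization or with the untreated transgenic reference, 18 with the Xist-low mice and 3 with the spread covariate. The list median of conventional DSS mice against the same untreated mice was -0.46.

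Transport genes of surface colonocytes also fell. Of 36 genes of ion and water transport and absorption 22 were called lower and none higher (background 14.5% lower), with a median of -1.33. Aqp8, a water channel of surface colonocytes, read 10.36, 7.62, 10.07, 7.30 and 10.63 in controls A to E and 12.09, 12.21, 11.66, 11.62 and 12.25 in untreated mice 7 to 11. Mice B and D, those with the highest Il1b, were by far the lowest, and all controls lay below all untreated mice. The log2 difference was -2.77 (SE 0.61, adjusted p = 0.0117 in limma). The chloride channels Best2 and Clcn2 fell by 2.68 and 1.57, and Guca2a, the hormone guanylin that drives fluid secretion, fell by 1.46. The chloride-bicarbonate exchanger Slc26a3 read 8.45 and 7.52 in mice B and D and 11.29 to 12.15 in the other controls, with no call (log2 difference -2.20, adjusted p = 0.067), except without mouse E (-2.67, adjusted p = 0.0366). The 22 falls were 14 without untreated mouse 7 or 11. They were 14 with the untreated transgenic reference, 13 with quantile normalization, 7 with the Xist-low mice and 1 with the spread covariate.

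Fatty acid oxidation, by which colonocytes burn the butyrate made by gut bacteria, had 16 of 22 genes called lower and none higher (background 14.5% lower). Its median was -0.94. Acaa2, a thiolase of the mitochondrial pathway, read 9.27, 8.70, 8.65, 8.40 and 9.27 in the controls and 10.55, 10.89, 10.52, 10.75 and 11.15 in the untreated mice. All controls lay below all untreated mice by more than 1 log2 unit (log2 difference -1.92, SE 0.19, adjusted p = 0.000797 in limma). Ech1, an isomerase of the pathway, fell by 1.42, the acyl-CoA synthetase Acsf2 by 1.34 and the short-chain dehydrogenase Acads by 1.26. The 16 falls were 12 to 17 without any 1 mouse. They were 14 with the untreated transgenic reference, 10 with quantile normalization, 5 with the Xist-low mice and 1 with the spread covariate. Of 26 subunits of the respiratory chain 16 were called lower (background 14.5% lower over all genes, and larger among genes of high signal), with a median of -0.54. The 16 were 6 without mouse B or untreated mouse 10, 10 without C, 8 without D or untreated mouse 8, 7 without 7 and 4 without 11. They were 6 with the untreated transgenic reference, 2 with quantile normalization, 1 with the Xist-low mice and 0 with the spread covariate.

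Mptx1, a mucosal pentraxin of the colon epithelium, had the second largest fall named. It read 9.51, 6.03, 10.60, 5.58 and 8.70 in controls A to E and 12.15, 11.99, 12.17, 12.32 and 12.56 in untreated mice 7 to 11. Mice D and B were again the lowest and the groups did not overlap. Its log2 difference was -4.15 (SE 0.82, adjusted p = 0.00781 in limma). It lost its call against the Xist-low untreated mice. Conventional DSS mice read 6.28 ± 0.80.

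Of 26 goblet cell genes 7 were called lower and none higher (background 14.5% lower over all genes, and larger among genes of high signal). Their median was -0.38. Atoh1, the transcription factor that sets the secretory lineage, read 9.02, 8.09, 8.80, 7.55 and 9.18 in the controls and 10.30, 9.94, 10.01, 10.83 and 10.18 in the untreated mice. The groups did not overlap (log2 difference -1.73, SE 0.29, adjusted p = 0.00461 in limma). Ern2, a stress sensor of mucus-producing cells, fell by 1.30, whereas Muc2 was not called (-0.28, 95% interval -0.67 to 0.11). Ctse, the acid protease cathepsin E, fell by 2.75, and the serine protease Prss30 fell by 2.54 from 10.34 ± 0.25 to 7.81 ± 0.64. The 7 goblet falls were 5 to 9 without any 1 mouse, 11 with the untreated transgenic reference, 3 with quantile normalization, 4 with the Xist-low mice and 0 with the spread covariate.

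Some genes of stem and endocrine cells fell. Of 22 stem cell and Wnt genes 8 were called lower and none higher (background 14.5% lower), with a median of -0.26. Lgr5, the receptor that marks crypt stem cells, fell by 0.78 (SE 0.14, adjusted p = 0.00605 in limma), Lrig1, which restrains growth factor receptors in stem cells, fell by 0.79 and Prom1, prominin 1, fell by 1.39. The 8 falls were 5 without mouse B, C, D or untreated mouse 7, 10 or 11, 5 with quantile normalization, 4 with the Xist-low mice and 0 with the spread covariate. Of 20 enteroendocrine genes 4 were called lower and none higher, near the background of 14.5% lower, and the list median was 0.02. The 4 were the granule proteins Chga (-1.07) and Chgb (-0.78), the serotonin-making enzyme Tph1 (-0.75) and Gcg, the precursor of GLP-1 (-0.92). Smooth muscle, the main other tissue of the gut wall, had 1 of 23 genes called lower (Casq2, a calcium store protein, not called without mouse B, C, D or E or untreated mouse 7, 10 or 11) and none higher, with a median of -0.06. After quantile normalization 6 of the 23 were called higher and 1 lower. The mean log2 level of the list lay between 9.30 and 9.99 in the controls and between 9.58 and 10.02 in the untreated mice.

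**Figure D4:**
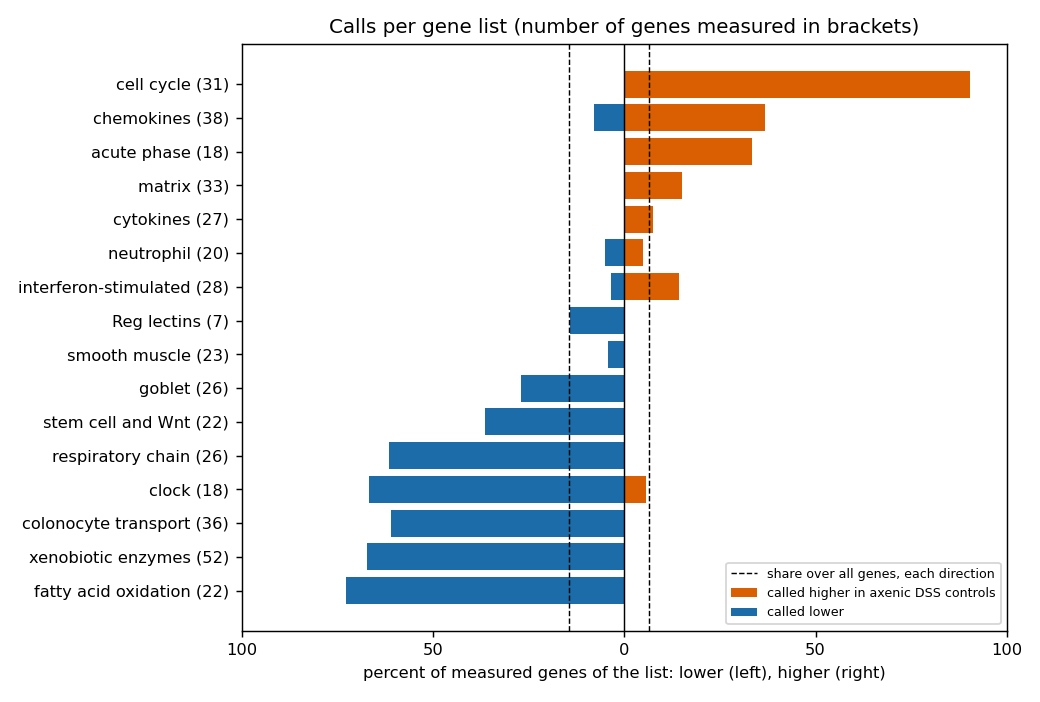
Percent of the measured genes of 16 lists that were called higher (right) or lower (left) in axenic DSS controls against untreated wild-type mice (adjusted p under 0.05 in limma, number of genes in brackets). Dashed lines mark the share over all genes, 6.36% higher and 14.5% lower. Cell cycle genes stand far right of the line, with 28 of 31 higher, and fatty acid oxidation, xenobiotic and transport genes far left of it.

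Tight junction genes had 12 of 20 called lower and none higher (background 14.5% lower over all genes, and larger among genes of high signal). Their median was -0.52. Cldn2, a claudin that forms cation pores, fell by 0.99 (SE 0.17, adjusted p = 0.00429 in limma). The 12 were 7 without mouse B, C or D, 5 without untreated mouse 10 or 11, 7 with the untreated transgenic reference, 3 with quantile normalization or the Xist-low mice and 0 with the spread covariate. Of 24 genes of wounded epithelium, 4 were called higher and 5 lower (backgrounds 6.36% higher and 14.5% lower). The higher ones were 2 without mouse D and 1 without untreated mouse 7, 8, 10 or 11. The lower ones were 3 without mouse C or untreated mouse 10 or 11. The keratin Krt7 fell by 1.19, and the annexin Anxa8 fell from 9.82 ± 0.54 to 8.32 ± 0.64 (adjusted p = 0.0103). Krt20, a keratin of surface cells, also fell, by 1.00.

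Jchain, the joining chain of IgA and IgM polymers and a product of plasma cells, was low in every axenic control. It read 6.90, 6.19, 6.51, 6.28 and 6.36 in controls A to E and 9.47, 9.12, 9.61, 7.98 and 10.08 in untreated mice 7 to 11. The highest control lay more than 1 log2 unit below the lowest untreated mouse. Jchain fell by 2.81 (SE 0.32, adjusted p = 0.00101 in limma), and the difference was -2.86 with the untreated transgenic mice as reference (adjusted p = 0.00118). It was at the edge of the threshold with the spread covariate (-2.76, adjusted p = 0.0526). In the other 5 groups of the series, which had a conventional or transplanted flora, the lowest single mouse read 7.19.

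Other plasma cell products did not all follow. Of 11 immunoglobulin heavy and kappa chain genes, a list added after the values were seen, 2 were called lower (background 14.5% lower). They were Igkv9-120 (-1.77, adjusted p = 0.00298 in limma) and Igkv10-96 (-1.66, adjusted p = 0.014). The heavy chain of IgA, Igha, read 8.84 in the controls and 9.16 in the untreated mice (-0.32, SE 0.29, adjusted p = 0.401). Syndecan 1, Sdc1, of plasma cells and epithelium, fell by 0.56, and Pigr, the epithelial receptor that carries IgA into the lumen, was not called (-1.07, adjusted p = 0.147). On the list of 21 B cell, plasma cell and IgA transport genes 3 were called lower and 6 higher (backgrounds 14.5% lower and 6.36% higher). The lower share was near its background. The higher ones included the B cell receptor partner Cd22 (0.69, SE 0.16, adjusted p = 0.0162) and numbered 4 without mouse A or C, 2 without B or untreated mouse 7, 1 without D or untreated mouse 8, 10 or 11, and 10 without 9.

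Some differences separated the untreated wild-type mice from the rest of the series. Of 18 clock genes 12 were called lower in the axenic controls and 1 higher (backgrounds 14.5% lower and 6.36% higher), with a median of -0.78. Against the untreated transgenic mice 2 were lower, against the Xist-low mice 7 and with the spread covariate 2. Per2, a repressor of the circadian clock, read 7.50, 7.32, 7.97, 7.55 and 7.67 in controls A to E and 8.94, 8.56, 8.51, 8.76 and 8.77 in untreated mice 7 to 11 (log2 difference -1.11, SE 0.13, adjusted p = 0.00111 in limma). In untreated transgenic mice it read 7.45 to 7.65, and the difference from them was 0.02 (adjusted p = 0.928). Dbp, an output gene of the clock, fell by 1.98 against untreated wild-type mice and differed by -0.14 from the untreated transgenic ones (adjusted p = 0.783). Per3 fell by 1.76 and kept its call against both references. The hour of collection is not stated, and its part was not tested.

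Nnt, the mitochondrial transhydrogenase that is disrupted in the C57BL/6J substrain and intact in C57BL/6N, was low in the axenic controls. It read 7.67, 6.97, 7.54, 7.17 and 7.53 in the controls and 8.56, 8.84, 8.41, 8.64 and 8.81 in the untreated wild-type mice, with no overlap (log2 difference -1.28, SE 0.14, adjusted p = 0.00101 in limma). Untreated transgenic mice read 7.19 to 7.55, a difference of 0.001 from the controls (adjusted p = 0.998), and conventional DSS wild-type mice 7.90 to 8.49. Nxpe5, a gene of unclear function, read 6.23 to 6.79 in the controls, 5.68 to 6.06 in untreated wild-type and 8.99 to 10.76 in untreated transgenic mice. Its log2 difference was 0.60 against untreated wild-type and -3.27 against untreated transgenic mice, opposite in sign. All mice are labelled C57BL/6N, and the part of the stock of origin in these values was not tested.

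Genes of the distal colon and of attached tissue also differed. Of 8 posterior Hox genes, which mark the hindgut end of the colon, 3 were called lower, Hoxb13, Hoxa13 and Hoxd12 (background 14.5% lower), with a median of -0.56. The count was 5 without untreated mouse 9 and 0 with the Xist-low mice. In conventional DSS mice the list median against the same untreated mice was -1.015. Axenic controls compared with conventional DSS mice had a list median of 0.361, with 1 gene called higher and none lower. Hoxb13 read 9.30 ± 0.83 in the controls and 10.98 ± 0.41 in the untreated mice (-1.69, SE 0.35, adjusted p = 0.00954 in limma) and Hoxa13 fell by 1.67. Hoxb13 differed by -0.47 from the untreated transgenic mice (adjusted p = 0.519). The segment of colon sampled is not stated, and its part was not tested.

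Of 14 genes of fat cells and mesothelium, 5 were called higher and 2 lower (backgrounds 6.36% higher and 14.5% lower). The mean log2 level of the list was 7.46 to 8.28 in the controls and 7.19 to 7.80 in the untreated mice. Lpl, the lipoprotein lipase of fat cells, rose by 1.14 (SE 0.23, adjusted p = 0.00783) and the fat cell nuclear receptor Pparg, which colonocytes also make, fell by 0.93. The 5 rises were 3 without untreated mouse 7 or 10 and 8 without 9. Beside them Retn, resistin, read 9.23, 8.19, 9.53, 7.72 and 10.02 in controls A to E and 6.48 to 7.51 in the untreated mice (log2 difference 1.88, SE 0.40, adjusted p = 0.0102 in limma), and Scd1, which desaturates fatty acids, rose by 2.09. The part of attached fat in the rises of Retn, Lpl and Scd1 was not tested. Alb, serum albumin, had the largest rise named, 2.98 (SE 0.87, adjusted p = 0.0333), and it came from 3 mice: 12.04 in mouse E, 10.49 in B and 10.21 in D, against 6.80 and 6.88 in the other controls and 6.12 to 6.48 in the untreated mice. Its call was lost without mouse B (adjusted p = 0.0652), D (0.0763) or E (0.0509) or untreated mouse 7 (0.0637), 8 (0.0558), 10 (0.0734) or 11 (0.0716).

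**Figure D5:**
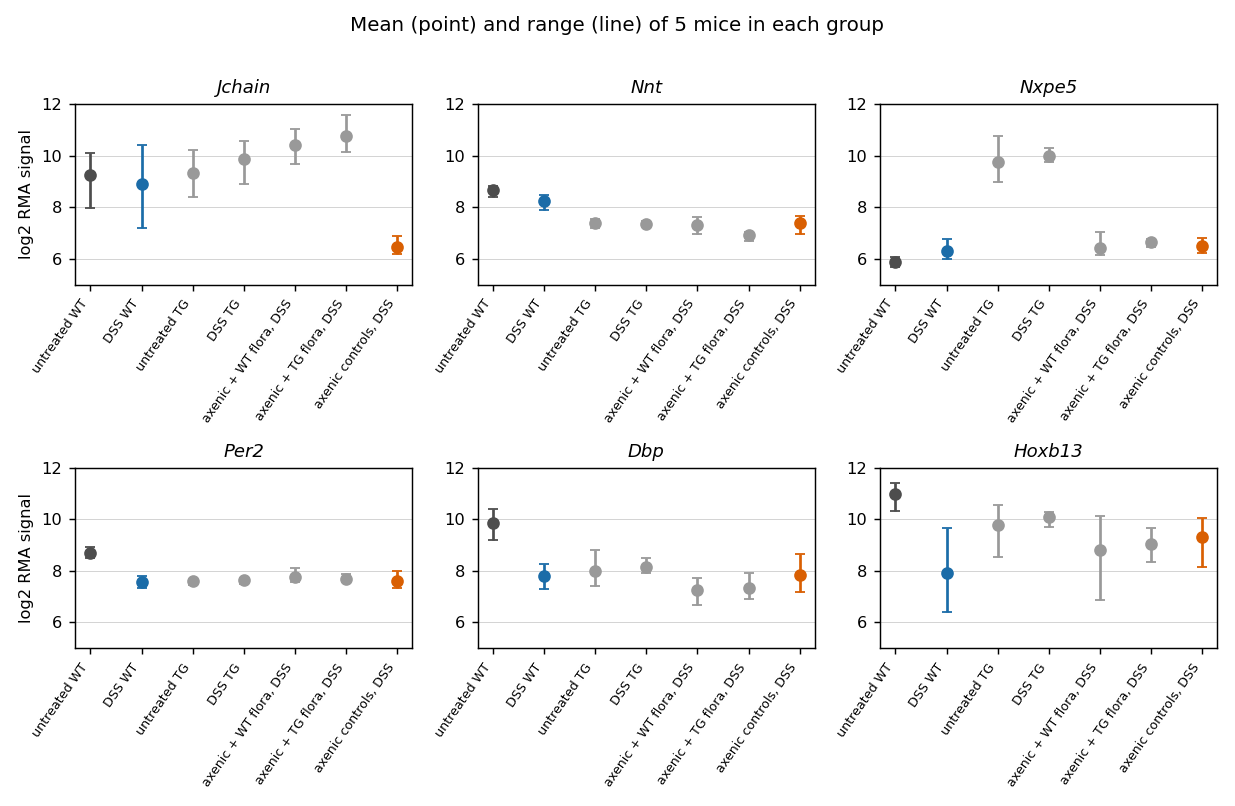
Mean (point) and range of 5 mice (line) of the log2 signal of 6 genes in the 7 groups of the series (WT, wild-type, TG, Reg3a-transgenic). Jchain is below 7 in the axenic controls and at 7.19 or above in every mouse of the other groups. Per2 is at 8.51 or above in untreated wild-type mice and at 8.10 or below in every mouse of the other groups, and Nnt reads 7.90 or above in the conventional wild-type groups only.

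DSS genes chosen on other mice moved in part. In the transgenic mice, which share no array with this comparison, 905 genes differed with DSS (4.55%), 689 higher (3.46%) and 216 lower (1.08%). Of the 689, 158 (22.9%) were called higher in the axenic controls against untreated wild-type mice and 78 (11.3%) lower, with a median log2 difference of 0.101. That median was 0.297 after quantile normalization, 0.261 with the spread covariate, 0.216 with the posterior Hox covariate, 0.023 with arrays centred on their median, 0.055 without mouse B and 0.154 without C. Of the 148 that rose at least 2-fold, 49 (33.1%) were called higher and 6 (4.05%) lower, with a median of 0.564. Of the 216 that were lower in transgenic mice, 46 (21.3%) were called lower and 11 (5.09%) higher, with a median of 0.058, and of the 15 with at least 2-fold falls 9 (60%) were lower and 1 (6.67%) higher. The backgrounds of these counts are 6.36% higher and 14.5% lower. The median of the 216 was below 0 under 5 refits that use none of the transgenic arrays, between -0.020 (arrays centred on their median) and -0.386 (genes above the 40th percentile of signal).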

How the data were processed

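Colon RNA of 35 mice was measured on 1 array each, and 10 arrays entered the comparison. The deposited values are log2 signals per probe set, which the authors made by RMA in Affymetrix Expression Console 1.1, per the submitters' processing notes; RMA sets all arrays to 1 distribution before probe sets are summarised, and the version of the library files is not stated in the labels. Of 28090 probe sets 21639 had 1 gene symbol in the platform annotation, 1539 several and 4912 none. The probe set with the highest mean over all 35 arrays stood for each of 19908 genes, of which 19826 matched a RefSeq gene by Entrez identifier.

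Groups were fitted with limma 3.58.1 in R 4.3.3 (lmFit and eBayes, no covariate, only the groups compared), with Benjamini-Hochberg adjustment over all genes at 0.05. The same fit compared axenic controls with conventional DSS wild-type mice, and DSS with untreated transgenic mice. Array spread was compared by an exact permutation test (Python 3.11.15, scipy 1.17.1). On simulated data with 200 changed genes among 19908, the fit called 40.3% of those changed 1.5-fold, 79.1% of those changed 2-fold and 98.5% of those changed 4-fold, and 4 unchanged genes. The simulated noise was drawn separately for each gene and array, without any shift shared by the genes of an array. These rates therefore only check the code and do not give the error or power on the real arrays. The number of mice, 5 a group, limits the precision.

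The members and the gene lists were chosen with earlier results of these data known. Genes eligible for naming were, among called genes of characterised symbol without overlap of the groups, the 15 that rose most and the 15 that fell most, up to 6 genes of each list with the smallest p, and a set of colitis, defence, clock and identity genes whatever their p; the immunoglobulin chains were added after their values were seen. Refits changed the low-signal filter, probe set choice, normalization, weights, variance model, covariates, reference group and mice included. Those with the spread covariate, all refits of the comparison with conventional DSS mice, the motifs of cell cycle promoters and the refits of list counts were chosen after seeing the data. Promoter windows came from RefSeq (GRCm38.p6).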

Additional observations from a re-analysis of the deposited data

Results flagged for a closer look

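The axenic controls lay below conventional DSS wild-type mice in 7 epithelial genes, in the direct limma comparison already given above, which uses no untreated mouse. The log2 differences were -6.90 for Retnlb, -6.43 for Reg3g, -5.83 for Reg3b, -5.201 for Plet1, -4.25 for Clca4b, -3.21 for Duox2 and -2.62 for Duoxa2. The adjusted p ran from 2.19e-08 for Retnlb and Plet1 to 0.0339 for Clca4b. Housing differs between these groups too, and whether the stock of origin differs is not stated. Their parts cannot be told apart.

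Single mice stood far from the other 4 of their group in 10 of 194 gene and group pairs (5.15%), where chance gives about 1 in 20. Mouse D of the axenic controls was high for Il6 (7.96, others up to 5.02) and Tnf (8.02, others up to 6.63) and low for Scd1 (9.21, others from 11.38). Mouse A was low for Ifng (6.28, others from 6.45). Among the untreated mice, mouse 11 was high for Reg3b (7.68, others up to 5.79) and low for Il6 (4.24, others from 4.31). Mouse 10 was high for Lcn2 (8.61, others up to 7.19) and Tph1 (7.31, others up to 6.65), and mouse 9 was high for Tnf (6.39, others up to 6.04) and low for Cyp2f2 (9.70, others from 10.35).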

How the results depend on the processing

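The 4158 calls became 63 with array spread as a covariate, 8358 with array weights, 0 with the posterior Hox mean as a covariate (2108 at an unadjusted p under 0.05), 2630 after quantile normalization, 28 in a test against a 1.5-fold change, 2129 against untreated transgenic mice and 863 against the Xist-low untreated mice, and 1937 to 7781 when 1 mouse was left out. The 127 calls against conventional DSS mice became 24 with the spread covariate, 17 with Xist-low mice and 11521 with array weights, and 37 to 7398 when 1 mouse was left out. Against untreated transgenic mice Per2 (0.017), Nnt (0.001), Reg4 (0.132) and Nxpe5 (-3.27) changed sign, as did Nxpe5 against all untreated mice (-1.34). The cause was not tested. Of 73 called genes described, 65 to 73 kept their call and direction under the planned refits, except quantile normalization (61), the untreated transgenic or the Xist-low reference (52 each), the 1.5-fold test (17) and the posterior Hox covariate (0). The spread covariate, added after seeing the data, left 15. Array spread and the posterior Hox mean differ between the groups, so their parts cannot be told apart from the group in these fits. When 1 mouse was left out, 66 to 72 kept their call. No paired analysis was possible because the mouse numbers in the titles are not shared between the groups. The number of mice, 5 in each group, limits the precision, and no measure of signal over background was used here.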
